A study of Mus musculus with 3 samples.

Results

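The exome libraries of MB49 cells listed 23347 different insertions and deletions (indels), of which 1076 lay in introns of the autosomes and added or removed 5 or more bases. These 1076 longer intronic indels were taken as the union over 3 libraries of entries on chromosomes 1 to 19 that the authors' annotation placed in an intron, matched on chromosome, start, reference allele and alternative allele. They comprised 667 deletions and 409 insertions. Intronic autosomal indels of 1 to 4 bases, 7983 in all, served for comparison.

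MB49 is an established line of mouse bladder cancer cells. Genomic DNA was captured for the exome and sequenced with paired reads of 150 bases from the parental line, a line labelled Y positive and a line labelled Y negative, with 1 library each. All 3 were grown in the same medium, and the labels name no further allele or treatment. The labels give neither the way in which the derived lines were made nor whether each is a clone, and no normal mouse DNA was analysed here. The study's title concerns loss of the Y chromosome. The autosomal indels described here are a comparison of the 3 libraries outside that chromosome. Since each group held 1 library, every test compared entries or reads of 2 libraries or of 2 sets of indels, not the conditions, and every interval is an exact binomial (Clopper-Pearson) 95% interval that covers counting error only.

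Introns are the stretches of a gene that are transcribed and then spliced out, so a length change inside one is not held to the reading frame and can be tolerated at many lengths. Short tandem repeats (microsatellites) are common in introns and change length when the replicating strands slip by whole repeat units. A change on every copy of a chromosome is read as homozygous, with few or no reference reads, and a change on some copies only is read as heterozygous. Exome capture reaches introns mainly beside the targeted exons, so intronic depth falls with distance from an exon.

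The following indels show the range of lengths, kinds and sequences. Coordinates are as deposited. They run past the ends of the genes of mm10 on several chromosomes, and mm9 is the other build named in the submitters' processing notes, so mm9 is inferred. Each sequence is given on the forward strand, with the reference base before the change in lower case and the deleted or inserted bases in capitals. The first 6 were homozygous in all 3 libraries and had the highest summed depth or were among the longest. The next 3 were heterozygous in all 3 libraries, and the last 3 differed in allele fraction, in genotype or in listing between libraries.
Deletion of 6 bases, chr11:48989240-48989245: gTTAGTT
Deletion of 10 bases, chr11:48989225-48989234: gTTATCTCAAC
Insertion of 15 bases, chr3:94743790-94743790: cTTGGTCCACAGCCCT
Insertion of 23 bases, chr9:121673265-121673265: cCAGGGCTGAGTCAGACCGGCTGT
Deletion of 31 bases, chr13:41200653-41200683: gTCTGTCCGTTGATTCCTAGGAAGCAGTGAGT
Deletion of 45 bases, chr9:121493108-121493152: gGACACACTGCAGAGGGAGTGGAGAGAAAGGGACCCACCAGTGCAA
Deletion of 47 bases, chr5:15127321-15127367: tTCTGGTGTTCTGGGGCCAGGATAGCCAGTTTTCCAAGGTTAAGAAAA
Deletion of 59 bases, chr1:90130829-90130887: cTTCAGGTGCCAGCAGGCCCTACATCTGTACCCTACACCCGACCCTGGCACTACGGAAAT
Insertion of 22 bases, chr1:90143886-90143886: tCCACTTTCCCAAGCTACCTACA
Deletion of 8 bases, chr3:88442303-88442310: tTTTTTTTA
Deletion of 8 bases, chr13:38269199-38269206: gTGTGTGTT
Deletion of 6 bases, chr5:145750759-145750764: aGTGTGT
None of the first 9 is a whole number of copies of a short unit. The 3 that varied consist of a run of T with a closing A, a TG repeat with a closing T, and 3 copies of GT. These examples were picked, and the contrast does not hold for all longer indels. Of 90 found homozygous in all 3 libraries at the depth used below, 24 were whole copies of a short unit. One was a deletion of 36 bases of TG repeat at chr4:86490962-86490997. Conversely, a deletion of 17 bases at chr8:63014738-63014754, which the Y negative library did not list, is not such a repeat.

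Most of the longer indels were near the short end of the range. Of the 1076, 641 were 5 to 9 bases long (59.6%), 302 were 10 to 19 bases (28.1%) and 133 were 20 bases or more (12.4%). The most frequent length was 6 bases, with 248 indels, against 145 of 5 bases. The median length was 8 bases for deletions and 8 bases for insertions, and the longest of each kind were 112 and 122 bases. Deletions made up 64.7% of the shortest class (interval 60.9 to 68.4%), 58.9% of the middle class (53.2 to 64.5%) and 55.6% of the longest (46.8 to 64.2%). The intervals overlap from class to class.

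**Figure D1:**
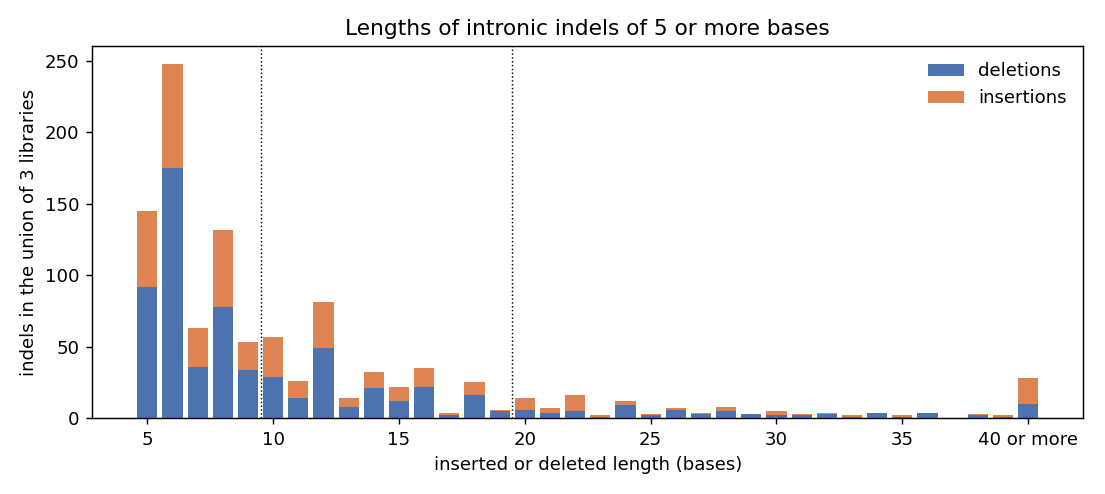
Number of intronic indels (vertical axis) at each inserted or deleted length in bases (horizontal axis, 40 or more pooled) in the union of 3 libraries, deletions and insertions stacked, with dotted lines between the 3 length classes. Lengths of 6 bases are the most frequent, with 248 indels, and even lengths stand above their odd neighbours at 6, 8, 10, 12, 14, 16 and 18 bases.

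Many of the inserted or deleted sequences were whole copies of a short unit, though most were not. The inserted or deleted bases of 487 of 1076 indels (45.3%, interval 42.3 to 48.3%) were at least 2 whole copies of a unit of 1 to 6 bases. A repeat with a partial or altered end, as at chr13:38269199, was not counted among these. Among the 210 with 20 reads or more in at least 1 library the share was lower, at 29.5%. Units of 2 bases were the most common, with 259 indels, followed by 93 runs of 1 base, 66 repeats of 4 bases, 53 of 3 bases, 10 of 5 bases and 6 of 6 bases. Counting a unit, its rotations and its reverse complement together, AC repeats gave 186 indels, runs of A 76, AG repeats 61, AGG repeats 19 and runs of C 17. AC and AG repeats are the usual mouse dinucleotide microsatellites.

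Whole repeats were 49.9% of the deletions (interval 46.1 to 53.8%) and 37.7% of the insertions (32.9 to 42.5%). Runs of A were 64 deletions against 12 insertions, and AG repeats 50 against 11. AGAT repeats went the other way, with 3 deletions and 10 insertions. The share of whole repeats was 45.0% at 10 to 19 bases and 26.3% at 20 bases or more (interval 19.1 to 34.7%), and no run of 1 base reached 20 bases, with 0 of 133 and an interval of 0 to 2.74%. Even lengths were 65.5% of all 1076 indels. Among the 589 that were not whole repeats, even lengths were 50.1% (46.0 to 54.2%). By class these were 41.2% at 5 to 9 bases (35.8 to 46.8%), where more of the possible lengths are odd, 59.6% at 10 to 19 bases (51.8 to 67.2%) and 63.3% at 20 bases or more (52.9 to 72.8%). Lengths that are a multiple of 3, the lengths that would keep a reading frame in an exon, were 44.1% of the 1076. The inserted or deleted bases that were not whole repeats had a median G+C content of 45.5%, with quartiles of 28.6 and 60%.

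Each library held a like number of longer intronic indels. The parental library listed 595, the Y positive library 564 and the Y negative library 611, which were 12.3%, 12.1% and 12.3% of the intronic autosomal indels of each. The Y positive and Y negative shares minus the parental share were -0.223 and -0.0575 percentage points. None of the 3 pairs of libraries differed by a Fisher exact test (two-sided, adjusted p from 0.993 to 1, Benjamini-Hochberg over 24 comparisons). Among entries at a depth of 20 reads or more the shares were 8.37%, 7.78% and 7.58%, with Fisher exact adjusted p from 0.981 to 0.993.

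Depth, taken as the sum of the reads that the authors assigned to the reference and alternative alleles, was low for most of these indels. The median was 6 reads in the parental library, 7 in the Y positive and 5 in the Y negative library, against 15, 17 and 15 reads for intronic indels of 1 to 4 bases. Entries below 5 reads were 42.4%, 41.1% and 47.0% of the longer indels. The median rose with length, from 5 to 6 to 10 reads over the 3 classes in the parental library, from 6 to 7 to 10 in the Y positive and from 4 to 5.5 to 8.5 in the Y negative library. Genotypes and allele fractions below are therefore given at 20 reads or more, which left 168, 161 and 154 entries in the parental, Y positive and Y negative libraries.

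At that depth most of the longer intronic indels were homozygous for the new allele. The parental library had 127 of 168 homozygous (75.6%, interval 68.4 to 81.9%), the Y positive library 117 of 161 (72.7%, 65.1 to 79.4%) and the Y negative library 112 of 154 (72.7%). Indels of 1 to 4 bases at the same depth were homozygous in 22.2%, 22.7% and 21.1% of entries. The difference passed a Fisher exact test in each library, with adjusted p of 6.02e-43, 8.85e-37 and 5.31e-38 over 9 comparisons that were chosen after the data had been seen. Neighbouring entries share reads and are not independent, and the 3 libraries share most of their indels, so these are not separate results.

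The share did not step up at 5 bases alone. In the parental library it was 21.7% at 1 base (268 of 1236), 12.5% at 2 bases (56 of 447), 44.8% at 3 bases (30 of 67) and 61.4% at 4 bases (54 of 88), and then 76.3% at 5 to 9 bases. The Y positive library gave 22.98%, 11.6%, 50.7%, 58.5% and 76.4% over the same lengths. The Y negative library gave 20.9%, 11.9%, 52.3%, 48.3% and 77.6%. Lengths of 1 and 2 bases, which hold most of the shorter indels, lay far below the rest in each library.

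Within the longer indels, the classes were less far apart. Homozygous genotypes were 76.3%, 77.1% and 70.4% over the 3 classes in the parental library, 76.4%, 76.0% and 50.0% in the Y positive and 77.6%, 72.7% and 56.0% in the Y negative library. Only neighbouring classes were tested against each other. The contrast with the smallest p, 38 of 50 at 10 to 19 bases against 11 of 22 at 20 bases or more in the Y positive library, had a Fisher exact p of 0.0529 and an adjusted p of 0.981. None of the 18 contrasts of neighbouring classes for deletions, genotype or sharing passed, and with 22 to 27 entries the longest class has wide intervals, for example 28.2 to 71.8% in the Y positive library.

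**Figure D2:**
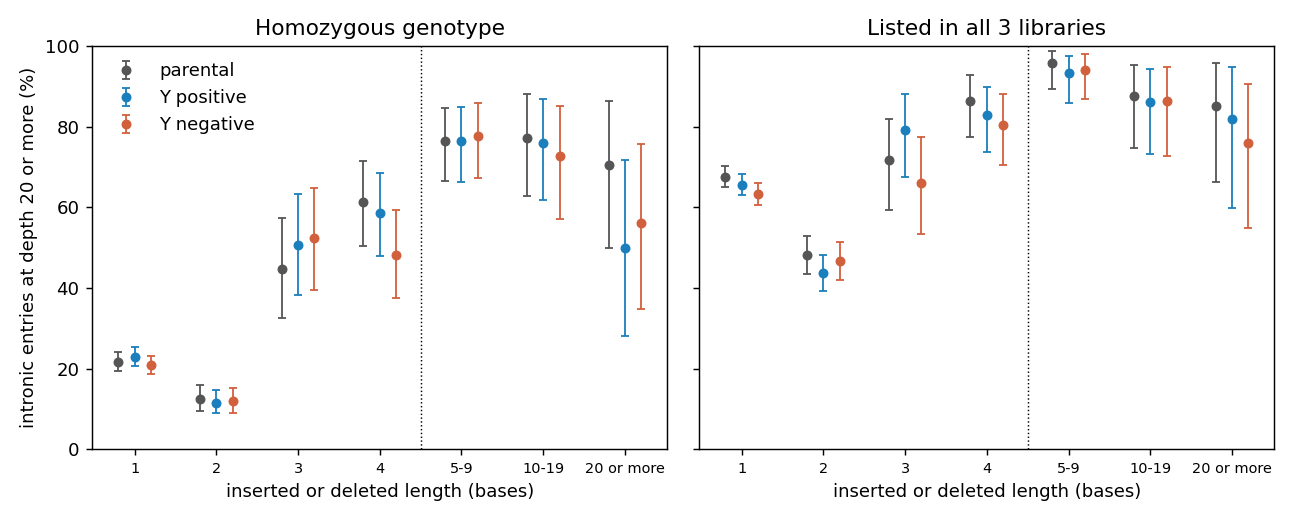
Share of intronic entries at depth 20 or more (vertical axes, percent) that were homozygous (left) or listed in all 3 libraries (right), by inserted or deleted length in bases (horizontal axes), with 1 point per library and exact binomial 95% intervals as bars. The dotted line marks the limit of 5 bases, and homozygous shares climb from 12.5% at 2 bases to 76.3% at 5 to 9 bases in the parental library.

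The kinds of change also differed between longer and shorter indels. Deletions were 58.9%, 61.5% and 59.1% of the longer indels at depth 20 or more in the parental, Y positive and Y negative libraries, against 79.1%, 80.1% and 80.4% at 1 to 4 bases. The Fisher exact adjusted p was 2.50e-08, 2.12e-07 and 1.04e-08 in the same 9 comparisons. By length, deletions in the parental library were 78.3% at 1 base, 87.7% at 2 bases, 73.1% at 3 bases and 50.0% at 4 bases, so the indels of 4 bases lay nearest to those of 5 to 9 bases, at 55.9%.

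The 3 lists overlapped little when all depths were counted and largely when depth was high. Of the 1076 indels, 668 stood in 1 list, 122 in 2 lists and 286 in all 3 (26.6%). The Jaccard index (shared indels divided by all indels of the pair) was 0.393 for the parental and Y positive libraries, 0.369 for the parental and Y negative and 0.387 for the Y positive and Y negative. Over the 210 indels with 20 reads or more in at least 1 library it was 0.879, 0.851 and 0.841, and 167 of the 210 were in all 3 lists (79.5%, interval 73.4 to 84.8%). By class, the shares in all 3 lists were 88.1% of 109, 73.8% of 61 and 65.0% of 40.

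Sharing rose with depth in each library. Of the parental entries below 5 reads, 8.73% were in all 3 lists, against 62.9% at 5 to 19 reads and 91.7% at 20 reads or more. The Y positive library gave 12.9%, 65.5% and 89.4%, and the Y negative library 12.9%, 65.9% and 89.0%. For 1 to 4 bases at 20 reads or more the shares were 63.9%, 61.2% and 60.4%, lower than for the longer indels in each library (Fisher exact adjusted p of 3.00e-15, 2.25e-14 and 5.31e-14 in the same 9 comparisons). The files give no reads for unlisted places, so an indel missing from a library's list was not shown to be absent from its cells.

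The gap in sharing was small among homozygous entries and wide among heterozygous entries. At 20 reads or more, homozygous longer indels were in all 3 lists in 96.9%, 98.3% and 98.2% of parental, Y positive and Y negative entries, and homozygous indels of 1 to 4 bases in 95.3%, 95.9% and 95.5%. Heterozygous longer indels were in all 3 lists in 80%, 73.5% and 76.7%, and heterozygous indels of 1 to 4 bases in 54.8%, 51.3% and 51.4%. These last shares were not tested.

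**Figure D3:**
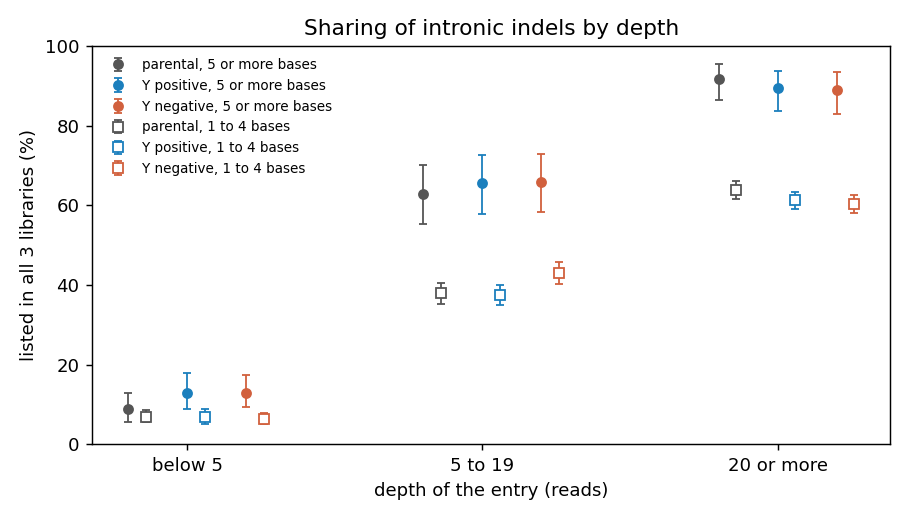
Share of intronic indels listed in all 3 libraries (vertical axis, percent) by depth of the entry in reads (horizontal axis), for indels of 5 or more bases (filled circles) and of 1 to 4 bases (open squares) in each library, with exact binomial 95% intervals. Parental shares of the longer indels are 8.73% below 5 reads, 62.9% at 5 to 19 reads and 91.7% at 20 reads or more.

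Whole repeats had lower values than other sequences in depth and in sharing. Their median depth was 4 reads in each library, against 9, 9 and 7 reads for the others, and they were in all 3 lists at all depths in 32.3%, 34.2% and 31.4% of entries against 58.3%, 61.4% and 56.9%. At 20 reads or more, 87.5%, 77.8% and 73.2% of repeat entries were in all 3 lists, against 93.0%, 94.0% and 94.7% of the others. The intervals do not overlap in the Y negative library, at 57.1 to 85.8% and 88.8 to 98.0%. Sharing required the same start, so an allele written from another start, as at chr2:75977746 in the Y negative library, counted as not shared. How much of the gap between repeats and others came from this was not tested. Entries from sites with 2 alternative alleles, a pattern known from microsatellites, were 7.5%, 15.6% and 21.95% of the repeat entries at that depth (3 of 40, 7 of 45 and 9 of 41). Among the others they were 2.34%, 2.59% and 2.65%. Both alleles of a site can be separate entries, as at chr2:75977744 and chr2:75977746 in the Y negative library, so the intervals count some sites more than once. The intervals for the Y negative library, 10.6 to 37.6% and 0.551 to 7.56%, do not overlap, while those of the parental and Y positive libraries do. Homozygous shares lay close together, at 77.5%, 71.1% and 70.7% of repeats and 75%, 73.3% and 73.5% of the others. These contrasts between repeats and other sequences were not tested.

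With 20 reads or more in all 3 libraries, 118 longer intronic indels could be compared in genotype. In 90 of them (76.3%) the genotype was homozygous in all 3, in 19 heterozygous in all 3 and in 3 it held 2 alternative alleles in all 3. The remaining 6 (5.08%) had differing genotypes. Of 1036 indels of 1 to 4 bases under the same depth rule, 321 (31.0%) were homozygous in all 3, 593 heterozygous in all 3 and 68 (6.56%) of differing genotype. By class, the homozygous indels were 54 of 68 at 5 to 9 bases, 28 of 35 at 10 to 19 bases and 8 of 15 at 20 bases or more.

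The 90 homozygous indels were nearly free of reference reads. In 76 of them no library had a reference read. Summed over the 90, reference reads were 6 of 5800 in the parental library (0.103%), 15 of 5614 in the Y positive (0.267%) and 19 of 5638 in the Y negative library (0.337%). There were 52 deletions among the 90 and 24 whole repeats.

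The deepest examples had the new allele in every read of every library. The deletions of 6 and 10 bases on chromosome 11, which lie 5 bases apart in introns annotated to transcript ENSMUST00000046522, had 221 of 221 and 225 of 225 alternative reads in the parental library. The Y positive library had 231 of 231 and 229 of 229, and the Y negative library 181 of 181 for each. Being so close, they share reads and count as 1 place. The insertion of 15 bases at chr3:94743790 had 142 of 142, 123 of 123 and 113 of 113 alternative reads in the parental, Y positive and Y negative libraries. An insertion of 7 bases at chr3:79490675 had 116 of 116, 115 of 115 and 118 of 118. None of the 3 libraries held a reference read at any of these places.

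Some long alleles were read as completely. The insertion of 23 bases at chr9:121673265 had 46 of 46, 37 of 37 and 39 of 39 alternative reads, in the same order of libraries. The deletion of 31 bases at chr13:41200653-41200683 had 52 of 52, 56 of 56 and 64 of 64. The deletion of 45 bases at chr9:121493108-121493152 had 58 of 58, 43 of 43 and 52 of 52, and insertions of 20 bases at chr11:46154825 and 16 bases at chr8:14983962 were also without a reference read, with 37 to 54 reads a library. A deletion of 36 bases of TG repeat at chr4:86490962-86490997 was homozygous in all 3, yet had 33 of 34, 47 of 50 and 26 of 28 alternative reads, so each library held 1 to 3 reference reads. Other long alleles had reference reads too. Among homozygous entries at 20 reads or more in all 3 lists, every read was alternative in 15 of 17, 9 of 11 and 9 of 13 of 20 bases or more. At 5 to 9 bases it was so in 68 of 71, 64 of 68 and 59 of 66.

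Homozygous longer indels were unevenly spread over the chromosomes. Of the 90, 26 lay on chromosome 3 (28.9%), 13 on chromosome 11 (14.4%) and 10 on chromosome 8 (11.1%). Chromosomes 1, 5, 7, 12, 15, 16, 17 and 19 held 0 of them. Only the 118 indels with 20 reads or more in all 3 libraries could be among the 90. Of these 118, chromosomes 7, 12, 15, 16 and 19 held 0, chromosome 5 held 1 and chromosome 17 held 2. Chromosome 1 held 11 of the 118, none of them homozygous in all 3 libraries. Chromosome 3 held 29 of the 118 (24.6%), chromosome 11 held 13 and chromosome 8 held 11. Much of the unevenness of the 90 was thus already present among the 118. All 1076 indels were uneven too. The 6 chromosomes with most (3, 8, 11, 18, 2 and 4) held 654 of them (60.8%), against 37.7% of the indels of 1 to 4 bases. Chromosome 3 alone held 149 (13.8%) against 7.68%, and chromosome 15 held 28 (2.60%) against 5.27%.

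Many of the longer indels on chromosomes 2, 3 and 11 lay in 3 stretches, known from earlier results of these data as homozygous and chosen after the positions had been seen. These are chromosome 2 from 80 to 95 Mb with 48 longer indels, chromosome 3 from 85 to 95 Mb with 98 and chromosome 11 from 40 to 55 Mb with 82. Together they held 228 of the 1076 (21.2%) and 6.29% of the indels of 1 to 4 bases. They also held 42 of the 118 indels with 20 reads or more in all 3 libraries (35.6%). Of the 90 that were homozygous in all 3, 39 lay there (43.3%), a share that follows in part from the choice of stretches. Without these stretches, 64.8%, 63.5% and 63.0% of the longer indels at 20 reads or more were homozygous in the parental, Y positive and Y negative libraries, against 17.96%, 18.7% and 17.04% at 1 to 4 bases. The difference between longer and shorter indels was therefore also present outside the stretches.

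**Figure D4:**
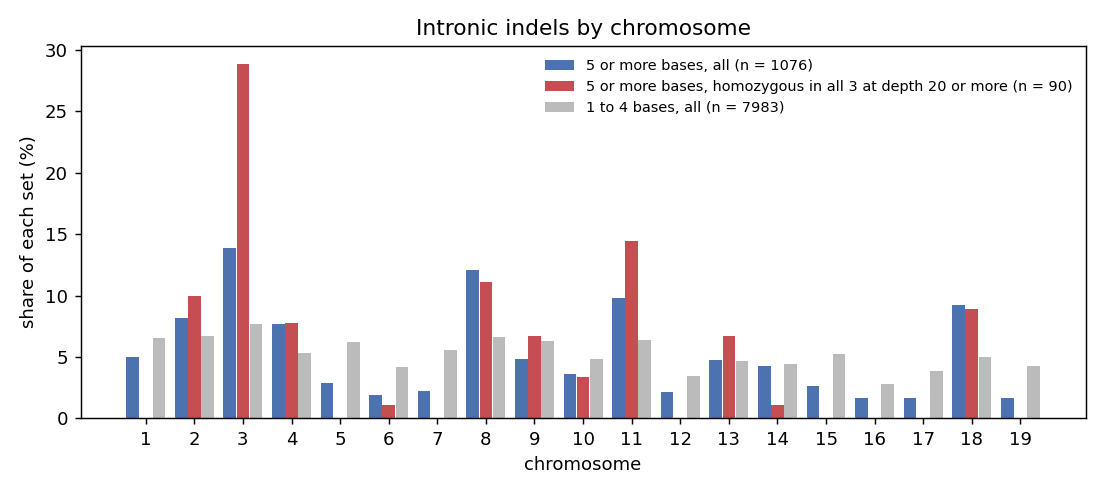
Share of each set of intronic indels (vertical axis, percent) on each autosome (horizontal axis), for all 1076 indels of 5 or more bases, the 90 that were homozygous in all 3 libraries at depth 20 or more, and the 7983 indels of 1 to 4 bases. Chromosome 3 holds 13.8%, 28.9% and 7.68% of these sets.

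The 1076 indels fell in 997 separate places, counting those within 10 bases of each other as 1 place, and 67 places held 2 or more. Other intronic indels, longer or shorter, lay within 10 bases of 246 (22.9%) and within 150 bases, a read's length, of 377 (35.04%). By first transcript identifier they fell into 576 groups. Of these groups 406 held 1 indel and 43 held 5 or more, with 350 indels between them. The fullest were ENSMUST00000102765 on chromosome 11 with 25 indels, ENSMUST00000098990 on chromosome 3 with 23 and ENSMUST00000061013 on chromosome 1 with 20. Transcript identifiers are those of the files, which hold no gene symbols.

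The group ENSMUST00000061013 stood out from the homozygous pattern. Its 20 indels lay within 25.3 kb, at chr1:90130359-90155671, in 16 places, and 10 of them had 20 reads or more in all 3 libraries. Of these 10, 7 were heterozygous in all 3 libraries and the other 3 held 2 alternative alleles in each. Counted by library at 20 reads or more, 8 of the group were heterozygous in the parental library, 8 in the Y positive and 7 in the Y negative. The parental and Y positive counts include an insertion at chr1:90144307 that the Y negative library did not list. At that depth 0 were homozygous in any library. The insertion of 22 bases at chr1:90143886 had alternative reads in 219 of 280 (fraction 0.782) in the parental library, 232 of 302 (0.768) in the Y positive and 207 of 275 (0.753) in the Y negative library. An insertion of 5 bases at chr1:90147996 had 208 of 292, 215 of 300 and 229 of 304. The libraries lay close together at both places and well above a fraction of 0.5.

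Other members of this group had fractions both as high and lower. The deletion of 59 bases at chr1:90130829-90130887 had 53 of 61, 49 of 64 and 51 of 70 alternative reads in the parental, Y positive and Y negative libraries. A deletion of 10 bases that ends 2 bases before it had 55 of 63, 51 of 67 and 56 of 75, and shares reads with it. An insertion of 8 bases at chr1:90141411 was lower, with 38 of 119, 24 of 120 and 30 of 109. So was an insertion of 8 bases at chr1:90144307, with 7 of 22 parental and 6 of 23 Y positive reads, which the Y negative library did not list. At chr1:90145245, insertions of 5 and 12 bases were listed as 2 alternative alleles of the same place in each library, with 75 and 70 of 175 reads in the parental, 81 and 72 of 183 in the Y positive and 96 and 73 of 207 in the Y negative library.

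Over all 19 indels heterozygous in all 3 libraries, 7 of which belong to that group, allele fractions ran from 0.125 to 0.873 in the parental library (median 0.568), from 0.122 to 0.821 in the Y positive (0.575) and from 0.175 to 0.870 in the Y negative library (0.512). The 7 of the group had medians of 0.797, 0.761 and 0.753, and the other 12 medians of 0.468, 0.423 and 0.458. In 15 of the 19 the fraction lay on the same side of 0.5 in all 3 libraries. The spread between libraries at a place, highest minus lowest, had a median of 0.103 and a highest value of 0.204.

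The longest of these outside the group was the deletion of 47 bases at chr5:15127321-15127367. It had 94 of 160 alternative reads in the parental library (0.588), 96 of 170 in the Y positive (0.565) and 93 of 163 in the Y negative library (0.571). A deletion of 11 bases at chr2:176864927-176864937 was deeper, with 159 of 372, 171 of 373 and 176 of 344. An insertion of 20 bases at chr4:146884776 had low fractions in each, with 9 of 56, 14 of 58 and 19 of 72, and an insertion of 13 bases listed 3 bases before it had 6 of 48, 9 of 51 and 16 of 63. No pair of libraries passed the Fisher exact test at any of these places.

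Allele fractions of the longer indels were then compared between libraries, place by place, using every indel that both libraries listed with 1 alternative allele and 20 reads or more. Between Y positive and parental, 0 of 137 longer intronic indels passed a Fisher exact test at an adjusted p of 0.05, against 24 of 2745 indels tested (0.874%), and 5 of the 137 (3.65%) had an unadjusted p under 0.05, against 6.23% of all tested. Between Y negative and parental, 1 of 123 passed, against 8 of 2651 (0.302%), and 2 (1.63%) had an unadjusted p under 0.05, against 5.47%. Between Y negative and Y positive, 0 of 118 passed, against 21 of 2645 (0.794%), and 3 (2.54%) had an unadjusted p under 0.05, against 6.20%. With so few called in all, 0 or 1 among the longer indels is near the background. Fractions were equal in both libraries at 101 of the 137, 85 of the 123 and 82 of the 118, and such places cannot pass. The shares under 0.05 may therefore not compare like with like. Among places heterozygous in both libraries, the median absolute difference was 0.0754, 0.0714 and 0.0550 in the same order of pairs. Intronic indels of 1 to 4 bases gave 0.0660, 0.0606 and 0.0692. The comparisons share libraries, so each gives its own values only.

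The indel that passed was the deletion of 8 bases at chr3:88442303-88442310, annotated to ENSMUST00000029694. Alternative reads were 18 of 41 in the parental library (fraction 0.439), 36 of 51 in the Y positive (0.706) and 35 of 40 in the Y negative library (0.875). The Fisher exact test of Y negative against parental gave p = 4.97e-05 and an adjusted p of 0.0225. Y positive lay between the others, and its Fisher exact test against parental gave p = 0.0115, with an adjusted p of 0.453. The parental library also listed a deletion of 9 bases from 1 base earlier, with 13 of 42 reads, which neither derived library listed. It overlaps the deletion of 8 bases, so the parental 18 of 41 counts as alternative the reads of the shorter length only. Whether this lowered the parental fraction was not tested. With indels within 10 bases of each other left out, this place was not counted among the longer indels. It lies in the stretch of chromosome 3 described above.

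**Figure D5:**
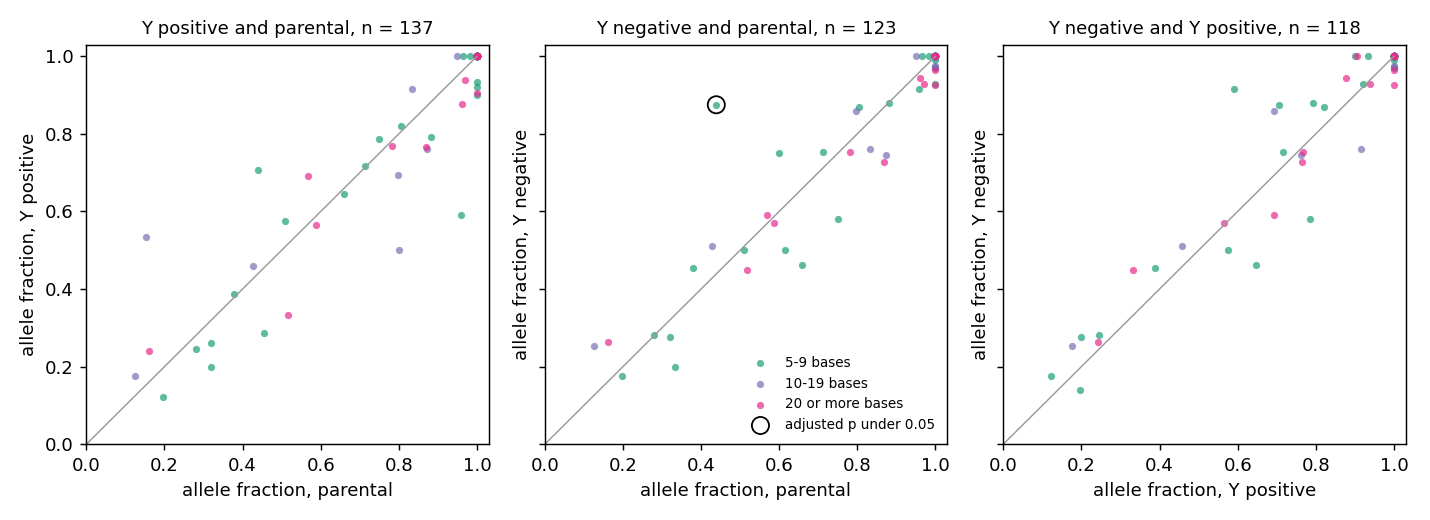
Allele fraction of each intronic indel of 5 or more bases in 2 libraries (both axes, alternative reads over all reads assigned to an allele), for the 3 pairs of libraries, with length classes in colour and the line of equality in grey. Points are the 137, 123 and 118 indels at 20 reads or more in both libraries, most of them at or near 1 on both axes, and the circled point is the deletion of 8 bases on chromosome 3, at 0.439 and 0.875.

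The indels with the next smallest p did not pass, and their reads were as follows. The deletion of 8 bases at chr13:38269199-38269206 had 23 of 24 alternative reads in the parental library, 13 of 22 in the Y positive and 22 of 24 in the Y negative library. Its Fisher exact p was 0.00357 for Y positive against parental, with an adjusted p of 0.237. The Y positive library also listed a deletion of 10 bases from 2 bases earlier, with 7 of 23 reads. It overlaps the deletion of 8 bases, so the Y positive fraction has the same limit. A deletion of 17 bases at chr8:63014738-63014754 had 4 of 26 reads in the parental and 16 of 30 in the Y positive library, and the Y negative library did not list it (Fisher exact p = 0.00481, adjusted 0.281). A deletion of 14 bases at chr1:90140437-90140450 had 98 of 123, 86 of 124 and 103 of 120 (Fisher exact p = 0.00221 for Y negative against Y positive, adjusted 0.172).

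Further places under this rule did not pass either. A deletion of 15 bases at chr15:38621163-38621177 had 20 of 25, 14 of 28 and 15 of 19 alternative reads in the parental, Y positive and Y negative libraries. A deletion of 5 bases at chr4:122993542-122993546 had 27 of 41, 31 of 48 and 24 of 52. There the Y negative library also listed overlapping deletions of 6 and 4 bases, with 14 and 12 of 52 reads, so its list held 3 overlapping lengths at this place. A deletion of 8 bases at chr13:38137016-38137023 had 27 of 36, 33 of 42 and 32 of 55.

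The 6 indels with differing genotypes were read as follows. Besides the deletions at chr3:88442303 and chr13:38269199, a deletion of 15 bases at chr3:90539331-90539345 had 20 of 24, 22 of 24 and 16 of 21 alternative reads, and was called homozygous in the Y positive library alone. An insertion of 8 bases of AT repeat at chr6:8125131 had 30 of 34, 23 of 29 and 29 of 33, and was called homozygous in the Y negative library alone. An insertion of 12 bases of AC repeat at chr3:89973155 had 51 of 51 reads in the parental library, while the derived libraries had 30 of 57 and 29 of 55 with a further alternative allele and no reference read. At this last place a further allele was listed in both derived libraries and not in the parental library.

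Indels listed in 1 library alone were 229 in the parental, 195 in the Y positive and 244 in the Y negative library. Their median depth was 2 reads in each, and 187, 161 and 210 of them had fewer than 5 reads. At 20 reads or more only 9, 9 and 11 remained. Of these, 5, 6 and 8 had an intronic indel of another length or start within 10 bases in another library. Few indels with good depth were thus listed in a library with no intronic indel nearby in the others. Only intronic entries were searched for neighbours.

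The parental library held the deepest homozygous ones. An insertion of 106 bases at chr5:130300581, annotated to ENSMUST00000031402, had 103 of 103 alternative reads, and neither derived library listed an intronic indel within 10 bases. The parental list also held an insertion of 1 base from 2 bases earlier, with 104 of 104 reads. Insertions of 14 and 22 bases at chr19:37646151 and chr19:37646166, annotated to ENSMUST00000066439, had 62 of 63 and 35 of 35 parental reads. Insertions of 1 and 2 bases beside them, at chr19:37646142 and chr19:37646164, had 72 of 73 and 36 of 36. These places had several insertions in a row in the parental list and no intronic indel within 10 bases in the derived lists.
The first on chromosome 19 is shown as the deeper of these neighbouring insertions, and it is not a whole repeat.
Insertion of 14 bases, chr19:37646151-37646151: gGATGGGTGGATGGT

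A deletion of 9 bases at chr5:14978610-14978618 had the highest depth of all the longer indels, with 157 of 1384 reads in the parental library (fraction 0.113). A deletion of 10 bases of T at chr1:90155662-90155671 had 52 of 110 parental reads beside a deletion of 1 base with 42 of 110, while the Y positive library listed a deletion of 2 bases from the same start with 37 of 56. An insertion of 13 bases of a run of 1 base at chr4:88797999 had 13 of 29 parental reads, and the Y negative library listed an insertion of 1 base there with 7 of 18. The last 2 were runs of 1 base whose written length differed between lists.

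In the Y positive library, an insertion of 69 bases at chr15:90796215, annotated to ENSMUST00000067205, had 24 of 60 reads. No intronic indel was listed within 10 bases of it in another library. The deletion of 6 bases, 3 copies of GT, at chr5:145750759-145750764 had 27 of 54 reads, while the other libraries listed a deletion of 2 bases from the same start, with 14 of 49 parental and 16 of 42 Y negative reads. Deletions of 20 and 18 bases at chr2:92068494 and chr2:92068496 were 2 alleles of 1 place with 6 and 15 of 22 reads. The parental and Y negative libraries listed the deletion of 18 bases from the first of these starts, as homozygous, with 15 of 16 and 23 of 23 reads. The deletion of 18 bases was thus listed in all 3 libraries under 2 starts.

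In the Y negative library, a deletion of 33 bases at chr12:88835600-88835632 had 45 of 284 reads (fraction 0.158). Pairs of alleles in AC repeats followed the pattern just described. At chr13:40309748-40309759 a deletion of 12 bases had 34 of 41 reads beside a deletion of 14 bases with 7 of 41, and the parental and Y positive libraries listed a deletion of 12 bases from 2 bases earlier with 31 of 31 and 26 of 26. At chr2:75977746-75977759 a deletion of 14 bases had 16 of 24 reads beside a deletion of 16 bases with 7 of 24, and the others listed a deletion of 14 bases from 2 bases earlier with 13 of 13 and 23 of 23. In each case the more abundant allele had the same length in all 3 libraries, and it was listed under another start beside a further allele in the Y negative library.

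An insertion near chr12:89328579 was written at a different length in each library, as 40 bases with 16 of 33 reads in the parental, 11 bases with 5 of 32 reads in the Y positive and 35 bases with 7 of 24 reads in the Y negative library. A deletion of 26 bases of repeat at chr8:98265556-98265581 had 20 of 20 reads in the Y negative library, while the others listed 26 bases from 2 bases later, with 10 of 16 and 18 of 27 reads, beside a deletion of 28 bases. At these places, listing in 1 library alone went with another written start or length. Over all depths, 0 parental, 4 Y positive and 5 Y negative private indels had an intronic indel of the same kind and length within 10 bases elsewhere.

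Of the longer indels on chromosome 18, 99 in all, a deletion of 40 bases at chr18:71495504-71495543 had 22 of 22 alternative reads in the parental library, 29 of 32 in the Y positive and 34 of 34 in the Y negative library. It was called heterozygous in the Y positive library alone, on 3 reference reads, and was the sixth place of differing genotype. A deletion of 6 bases at chr18:62819442-62819447 was listed in the Y positive library alone, as 1 of 2 alternative alleles with 8 of 24 reads. The parental and Y negative libraries listed a deletion of 4 bases from the same start with 23 of 23 and 29 of 29 reads.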

How the data were processed

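Groups followed the genotype labels, with 1 library each. The sample descriptions MBN (on Y positive) and MBP (on Y negative) may run against those labels. The submitters' processing notes name BWA, Picard, mm9 and mm10; the variant caller is not given in the sources used here. The authors' read counts per allele were whole numbers as deposited, and depth was their sum. The authors' deposited quality score served only in an alternative setting. Allele fraction was alternative reads over depth.

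Members and lists were chosen with earlier results of these data known. Named indels were those passing the allele fraction test (filled up to 5 a pair by smallest p), the 5 longest deletions and insertions in all 3 libraries at 20 reads, the deepest homozygous of each class and kind, and up to 3 deepest private ones a library with an allele fraction of at least 0.25. The transcript group on chromosome 1, the neighbours of named indels and other private indels were added after seeing values.

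Two-sided Fisher exact tests (scipy 1.17.1, Python 3.11.15) were adjusted by Benjamini-Hochberg at 0.05, over 24 planned and 9 added share comparisons and over all indels tested in a pair of libraries. The script was tested on simulated reads. No genome was used, so flanking repeats and exon distances were not analysed here.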

Additional observations from a re-analysis of the deposited data

How the results depend on the processing

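Of 405 values under alternative settings, 26 moved beyond their interval or by over 1.5 times, and none reversed; the cause was not tested. With a minimum depth of 10 reads, 84.5% of parental indels were in all 3 lists, and with 30 reads, 94.8% of Y positive indels. From 4 bases on, there were 1937 indels, 329 at depth, with 65.2% deletions, 49.4% whole repeats and 63.9% homozygous in Y negative. Without sites of 2 alternative alleles, 93.7% of Y negative indels were in all 3 lists. Leaving out indels within 10 bases of another left 130 at depth, with 82.1%, 80.9% and 83.3% homozygous (parental, Y positive, Y negative), 97.3%, 94.5% and 96.1% in all 3 lists, and 0 of 90 called between Y negative and parental. A quality score of at least 100 left 497 indels, with 56.1% deletions and 37.8% whole repeats. With the caller's total depth as denominator the parental median allele fraction was 0.942. At a threshold of 0.01, 0 were called between Y negative and parental. Without the 3 stretches, an alternative added after seeing the data, 137 indels were at depth, 64.8%, 63.5% and 63.0% were homozygous, and 0 of 78 were called between Y negative and parental. Depth settings do not apply to the number of indels, their deletion share or their repeat share at all depths. The repeat share at the depth minimum was 29.5% at 20 reads, 34.3% at 10 and 24.1% at 30.

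No paired analysis was possible because each group held 1 library and the labels carry no shared replicate numbers. With 1 library a group, differences between the lines have no replicate check. Low depth also limits the lists: 41.1% to 47.0% of these indels rested on fewer than 5 reads.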
